A study of Zea mays with 56 samples.

Results

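The most abundant RNA listed at Cluster_35421 is a 3p arm of miR167, and that at Cluster_11369 is a 5p arm of miR396. These loci are 2 of the 98 miRNA loci in a small RNA table from maize leaves. They were chosen by their measured levels in plants with and without B chromosomes and across B copy numbers in these same libraries. Their levels and changes are therefore a description and carry no test. B chromosomes are dispensable extra chromosomes that come on top of the regular set. The plants were of the maize inbred W22, grown in a greenhouse, and leaf was taken at an age of 45 days, per the labels. The 24 carriers comprised 4 plants each with 1, 2, 3 and 4 B chromosomes (1B to 4B), 2 with 5 (5B), 3 with 6 (6B) and 3 with 7 (7B), and 4 plants without a B chromosome formed the Control group. Copy number had been counted by fluorescence in situ hybridization at the seedling stage, and the labels call plants of a group biological replicates. Each of the 28 plants gave a small RNA library and an RNA-seq library. All carrier plant codes start with EB and all Control codes with D, so B presence cannot be told apart from what these codes stand for, which the labels do not state. The leaf label could not be checked against marker genes, since the gene table has identifiers without names and 0 of them matched the RefSeq gene table.

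Plant miRNAs are cut from a folded precursor as a duplex of a 5p and a 3p strand, and the strand that is loaded into an ARGONAUTE protein guides the cleavage of matching mRNAs. miR167 is known for its 5p strand, which targets mRNAs of auxin response factors (ARFs of the ARF6 and ARF8 type). Its 3p strand is the partner of that guide strand in the duplex. miR396 is known for targeting growth-regulating factors (GRFs), transcription factors that promote cell proliferation in young leaves.

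The most abundant RNA of each miR167 locus is printed first, to show how the 3p RNA of Cluster_35421 differs from the others of its family. Sequences are those of the authors' table, written 5′ to 3′, and capitals mark the seed, bases 2 to 8.
Cluster_35421 (3p): aUCAUGCUguggcagccucacu
Cluster_35675 (3p): aUCAUGCUgugacaguuucacu
Cluster_63677 (3p): aGAUCAUGuugcagcuucacu
Cluster_811 (5p): uGAAGCUGccagcaugaucuga

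Cluster_35421 lies at chr5:4442863-4442963 on the plus strand. Its RNA of 22 nt shares its seed with Cluster_35675 (chr5:8172506-8172606, plus strand). The RNAs of these loci have 19 bases in common and differ at 3. The other miR167 loci have seeds of their own. Cluster_63677 is at chr9:115048666-115048813 and Cluster_811 at chr1:13756133-13756340, both on the plus strand. The 3p loci were assigned to miR167 by pairing with the 5p RNA of Cluster_811. Counting only A-U and G-C pairs, Cluster_63677 paired at 18 bases, and Cluster_35421 and Cluster_35675 at 17 bases each.

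The most abundant RNA of each miR396 locus is printed to show that the one listed at Cluster_11369 differs from the others. Those listed at Cluster_32338 and Cluster_42856 are the same.
Cluster_11369 (5p): uCCACAGGcuuucuugaacug
Cluster_32338 (5p): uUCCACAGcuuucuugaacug
Cluster_42856 (5p): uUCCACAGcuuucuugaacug
Cluster_42849 (5p): uUCCACAGcuuucuugaacuu

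Cluster_11369 lies at chr2:1896663-1896866 on the minus strand. Aligned with Cluster_32338, its RNA has 20 identical bases, 0 different bases and 1 gap. Its seed was shared with 0 other loci of the table, whereas the other miR396 loci share a seed. Cluster_32338 is at chr4:182474212-182474340 on the plus strand. Cluster_42849 (plus strand) is at chr5:218605896-218606020 and Cluster_42856 (minus strand) at chr5:218613304-218613417. The genome build of these coordinates is not given in the sources used here. The authors' table places no gene over Cluster_35421 or Cluster_11369.

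Over all libraries together, Cluster_35421 had 1820 reads, 67.2% of which were placed at that locus alone. Cluster_11369 had 25960 reads, of which 1 was placed there alone, so nearly all of its count depends on how reads with several possible places were assigned. Whether its RNA came from this locus or from other places cannot be told. Cluster_35421 was also mixed in length. Its reads were 41.5% of 22 nt, 29.2% of 23 nt and 17.9% of 21 nt, and its most abundant RNA made up 36.5% of them. At Cluster_11369, 86.9% of the reads were of 21 nt and 11.4% were shorter than 20 nt, and the most abundant RNA made up 85.1%. Nearly all reads of Cluster_35421 (99.9%) were on the plus strand, and 0% of those of Cluster_11369 were. These are pooled values of the authors' table, and length by plant was not analysed here.

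**Figure D1:**
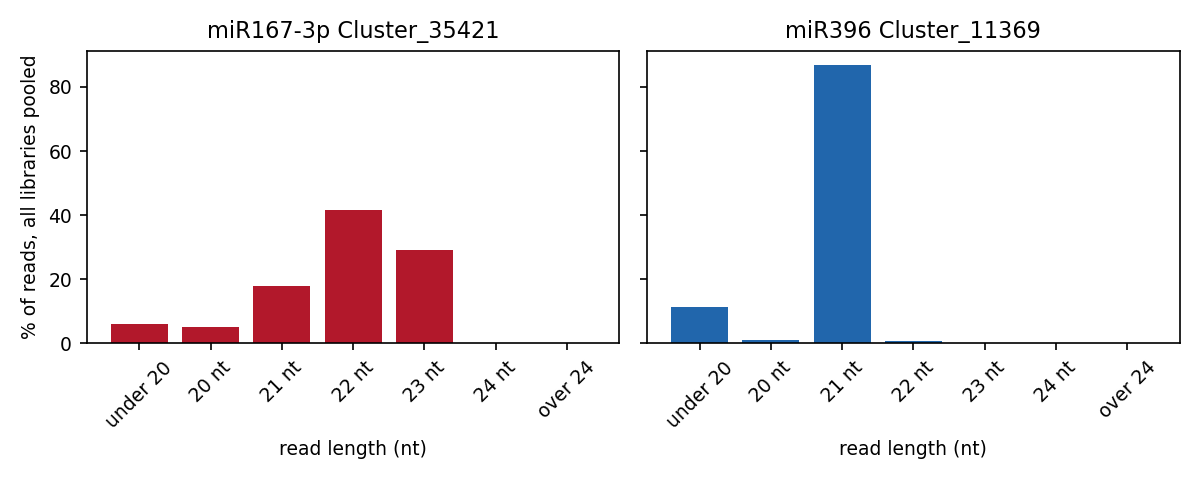
Share of the reads at Cluster_35421 (left) and Cluster_11369 (right) in each length class in nt, as % of the locus reads pooled over all libraries. Reads of Cluster_35421 spread over 21 to 23 nt with 41.5% at 22 nt, whereas 86.9% of those of Cluster_11369 were of 21 nt.

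The small RNA libraries held between 17487 and 120136 counts at the 98 loci. The shallowest was 3B replicate 1, and the next had 55575 counts. Whole small RNA libraries, recovered from the ratio of count to RPM, held between 204339 and 1070937 reads. The miRNA loci took 11.8% ± 1.48 of these reads in carriers (SD, n = 24) and 9.23% ± 1.51 in Control plants (SD, n = 4). Levels are therefore given on 2 scales. CPM is relative to the counts at the miRNA loci after TMM scaling, with a factor meant to line up the bulk of the loci. RPM is the authors' value, relative to all reads of the small RNA library. The median log2 change of all tested loci, carriers minus Control, was -0.16 on the CPM scale and 0.22 when whole library totals were used without factors. A change of one locus is therefore also given relative to that median.

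Cluster_35421 was higher in carriers on both scales. It averaged 810.8 ± 257.2 CPM in carriers (SD, n = 24; lowest 476.1, median 768, highest 1392) and 371.6 ± 94.3 CPM in Control plants (SD, n = 4; 255.6 to 459.6). In RPM, the carriers averaged 95.3 ± 32.2, with 51.7 as the lowest value, and the Control plants 32.9 ± 5.74, with 36.0 as the highest. All 24 carriers lay above all 4 Control plants on either scale, and the ratio of the means was 2.18 in CPM and 2.90 in RPM. Among the 98 loci, Cluster_63212 and Cluster_66098 also had all 24 carriers above all Control plants in CPM. At Cluster_3485 all 24 lay below. The counts behind the values of Cluster_35421 were small, 14 to 149 per carrier and 26 to 33 per Control plant. Counting error alone gives 14 counts in 3B replicate 1 an exact Poisson 95% interval of 7.65 to 23.5, and the 33 counts of Control replicate 1 one of 22.7 to 46.3. PCR copies are not independent molecules, so such intervals cover counting error only.

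By copy number, the 4 Control plants had 335.1, 436, 459.6 and 255.6 CPM of Cluster_35421. The 1B plants had 476.1, 831.1, 769.2 and 1173 CPM. The 2B plants had 476.3, 611.5, 1072 and 1392 CPM. Replicates differed widely within both carrier groups, and the lowest plant of each stood just above the highest Control plant. The 3B plants had 542, 664.8, 486.5 and 1107 CPM. The 4B plants had 720.2, 969.1, 680.8 and 774.8 CPM, and the 5B plants had 640.8 and 1305 CPM. The 4B plants lay close together, whereas 1 of the 2 5B plants was near the top of all carriers. The 6B plants had 636.9, 766.8 and 655 CPM. The 7B plants had 772.9, 948.2 and 987.1 CPM. In order of their means, the groups ran Control, 6B, 3B, 4B, 1B, 2B, 7B and 5B. Each neighbouring pair of carrier groups in that order overlapped, and their means differed by less than the larger of the 2 SDs. The Control group did not overlap with 6B, the lowest carrier group.

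The edgeR fit over all loci gave Cluster_35421 a log2 change of 1.16 ± 0.28 (SE), mean of the 7 carrier groups minus Control. By copy number, the log2 changes against Control were 1.14 for 1B, 1.28 for 2B, 0.97 for 3B, 1.11 for 4B, 1.40 for 5B, 0.91 for 6B and 1.30 for 7B. These 7 values share the same 4 Control plants. Within the 24 carriers the log2 slope per B copy was -0.01 ± 0.04 (SE). In the authors' deposited table, which may be scaled otherwise, the log2 fold changes of this locus against Control lay between 1.14 for 6B and 1.80 for 2B. Among carrier groups, mean RPM was also lowest in 6B (72.5) and highest in 2B (114.6), against 32.9 in Control. Relative to the median locus, the change was 1.32 on the CPM scale and 1.32 with whole library totals. Across 9 ways of scaling and testing it lay between 1.26 and 1.40.

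**Figure D2:**
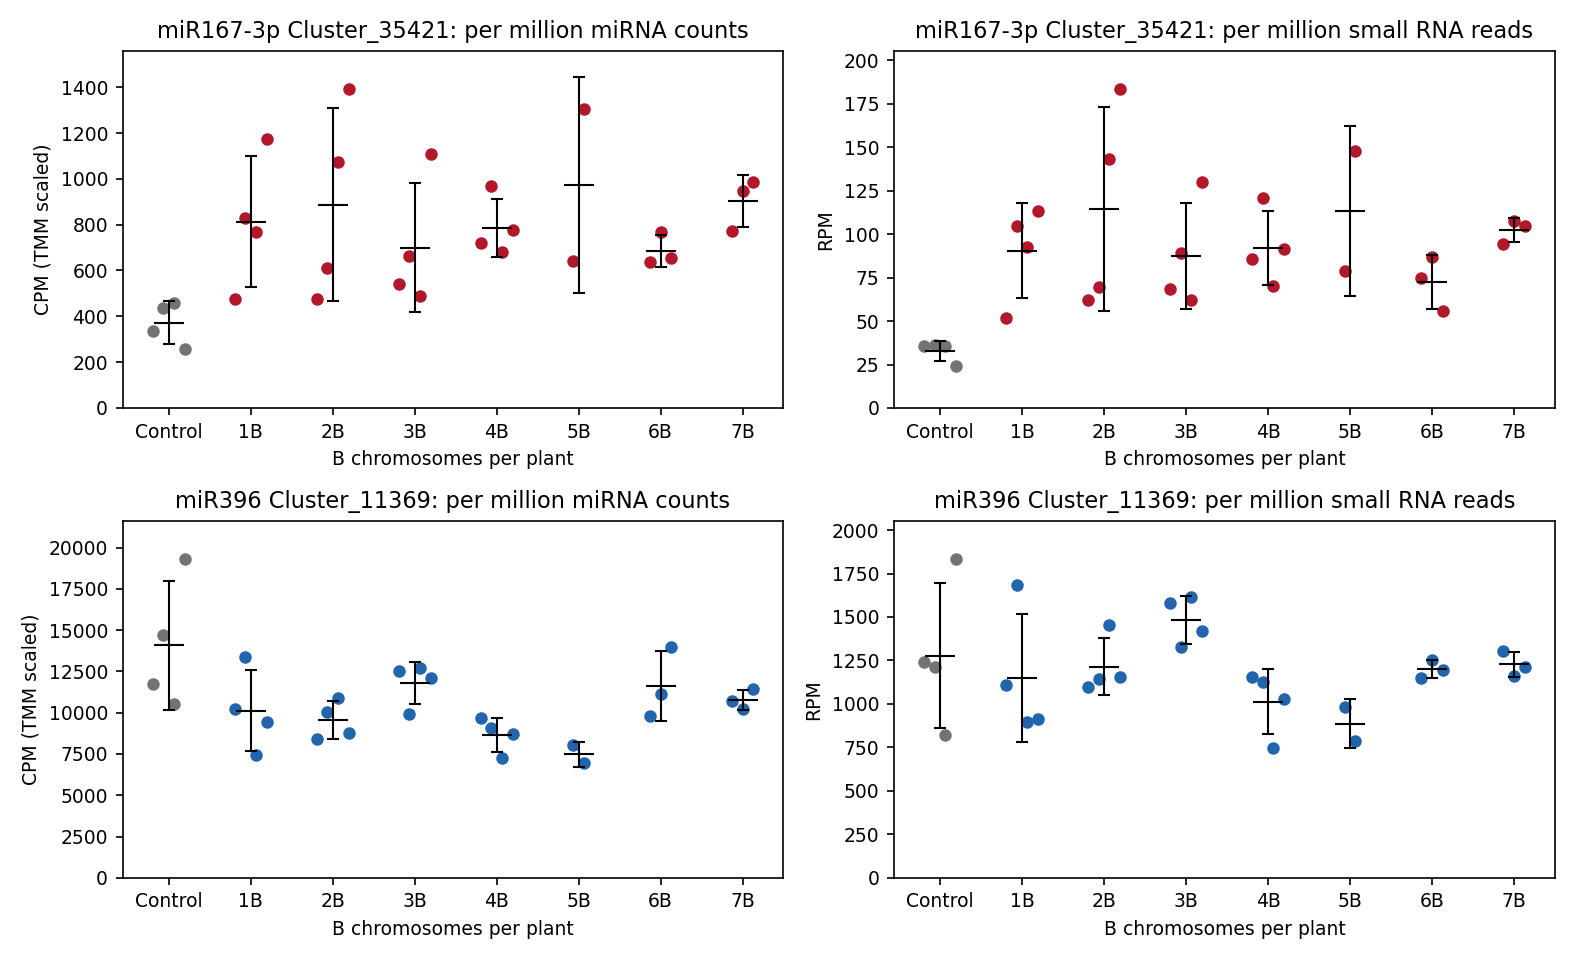
Level of Cluster_35421 (top) and Cluster_11369 (bottom) in each plant, in TMM-scaled CPM (left) and in RPM of the whole small RNA library (right), by number of B chromosomes from none (Control) to 7. Points are plants, and bars are the mean ± SD of a group (n = 4, 4, 4, 4, 4, 2, 3 and 3); for Cluster_35421 all 24 carriers lie above all 4 Control plants in both panels, and for Cluster_11369 carriers as a whole overlap with Control, although the 4B and 5B plants lie below all Control plants in CPM.

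Cluster_11369 was lower in carriers on the CPM scale and overlapped with Control in RPM. It averaged 10110 ± 1909 CPM in carriers (SD, n = 24; lowest 6939, median 9968, highest 13970) and 14070 ± 3904 CPM in Control plants (SD, n = 4; 10550 to 19310). On that scale 15 carriers lay below the lowest Control plant and 0 above the highest. In RPM the carriers averaged 1188 ± 243 and the Control plants 1277 ± 417, and 2 carriers lay below the lowest Control plant. The miRNA share of the libraries, which sets the 2 scales apart, was 11.8% in carriers and 9.23% in Control plants, and its part in the result was not tested.

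The 4 Control plants had 11730, 14700, 10550 and 19310 CPM of Cluster_11369. The 1B plants had 10210, 13370, 7433 and 9455 CPM. The 2B plants had 8435, 10040, 10900 and 8770 CPM. The highest value of all was that of Control replicate 4, and the other 3 Control plants fell among or just above the carriers. The 3B plants had 12500, 9896, 12720 and 12070 CPM. The 4B plants had 9684, 9060, 7257 and 8688 CPM, and the 5B plants had 8021 and 6939 CPM. The 4B and 5B plants all lay below every Control plant. The 6B plants had 9823, 11100 and 13970 CPM. The 7B plants had 10680, 10250 and 11440 CPM. The group means ran, from the lowest, 5B, 4B, 2B, 1B, 7B, 6B, 3B and Control. Neighbouring groups in that order overlapped in range in all 7 cases, 3B and Control included. The means differed by less than the larger SD in 6 of them; 4B exceeded 5B by 1192 CPM, against a larger SD of 1029 CPM. In RPM the 3B group, at 1485 ± 138 (SD, n = 4), stood above Control at 1277 ± 417 (SD, n = 4), and its range lay within that of Control.

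The edgeR log2 change of Cluster_11369, carriers minus Control, was -0.51 ± 0.13 (SE) with TMM factors, -0.15 ± 0.15 (SE) with whole library totals and -0.10 ± 0.15 (SE) in limma on log2(RPM + 1). It was negative on every scale, and the last 2 of these values are within about their SE of 0. Relative to the median locus, it was -0.35 with TMM factors and -0.37 with whole library totals, and it lay between -0.37 and -0.27 over 9 ways of scaling and testing. The absolute change was -0.15 without Control replicate 4, and relative to the median locus it was then -0.24. Leaving out 1 carrier also moved the absolute change in many fits. Without 2B replicate 1 it was -0.38, and -0.35 relative to the median locus. Without Control replicate 3 the absolute change was -0.62. By copy number the log2 changes against Control, which share the 4 Control plants, were -0.48 for 1B, -0.56 for 2B, -0.26 for 3B, -0.70 for 4B, -0.91 for 5B, -0.28 for 6B and -0.38 for 7B. In the authors' deposited table, which may be scaled otherwise than the fit here, they ranged from -0.53 for 5B to 0.22 for 3B. Mean RPM was also lower in 5B (885) and higher in 3B (1485) than in Control (1277), whereas mean CPM was lower in both. The log2 slope per B copy among the 24 carriers was 0.00 ± 0.03 (SE).

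Across the whole table, edgeR called 29 of 71 tested loci for B presence at an adjusted p under 0.05 (40.8%), 12 higher and 17 lower in carriers. Both loci described here are among them, and nothing is read from that, since the same contrast chose them. The call of Cluster_11369 also depended on the fit. It was made in only 19 of 28 fits with 1 library left out and in 6 of 9 ways of scaling and testing. The split depended on the scale, with 24 higher and 4 lower when whole library totals were used. Cluster_35421 had the sixth-highest change of the 71, with 5 loci above it, and 15 loci had a lower change than Cluster_11369. For B dosage among carriers, edgeR called 0 of 70 loci (0%), with 14 of them at an unadjusted p under 0.05; DESeq2 called 1 and limma 0. Without the shallow library 3B replicate 1, edgeR called 5 for dosage.

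**Figure D3:**
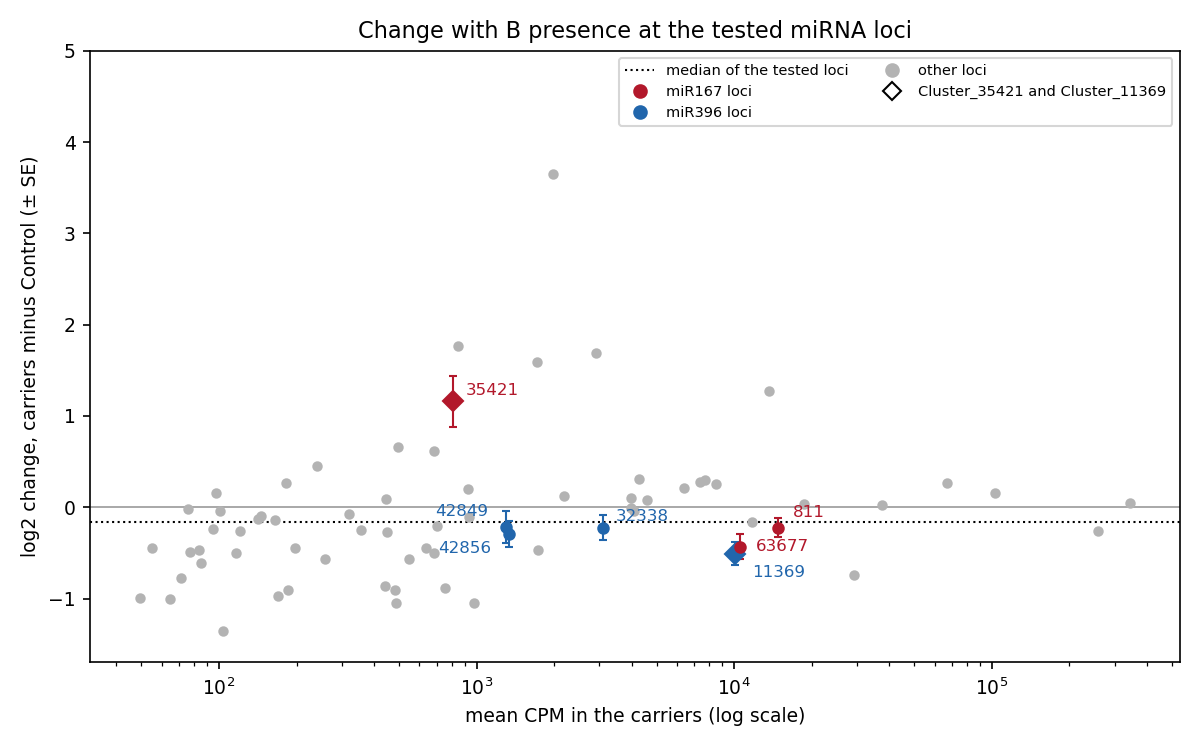
Log2 change with B presence (carriers minus Control, edgeR with TMM factors) of the 71 tested miRNA loci against their mean CPM in carriers on a log axis. Numbers are the Cluster numbers of the miR167 (red) and miR396 (blue) loci, with SE as bars; Cluster_35421, at 1.16, stands apart from the other miR167 loci, at -0.22 and -0.43, while the miR396 loci lie between -0.51 and -0.21 on this scale, and all of them except Cluster_11369 turn positive in limma on RPM.

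None of the other miR167 loci was called higher. Of the 2 that passed the filter on low counts, edgeR called 0 higher and 1 lower in carriers. Cluster_63677, the abundant 3p locus, averaged 10500 ± 1993 CPM in carriers (SD, n = 24; lowest 5226, median 10560, highest 15900) and 14200 ± 2564 CPM in Control plants (SD, n = 4; 11830 to 17640). Its log2 change was -0.43 ± 0.14 (SE; edgeR, adjusted p = 0.0138 over all loci) with TMM factors and -0.08 with whole library totals (edgeR, adjusted p = 0.696). That call was held in 7 of 28 fits that each left out 1 library. Cluster_811, the 5p locus whose arm is the known guide against ARF mRNAs, averaged 14780 ± 1950 CPM in carriers and 17140 ± 3090 CPM in Control plants (SD, n = 24 and 4). Its log2 change of -0.22 ± 0.11 (SE) did not pass the threshold (edgeR, adjusted p = 0.0998), and it was 0.17 in limma on RPM. Cluster_35675, which shares the seed of Cluster_35421, had 0 to 4 counts per carrier and 0 to 2 per Control plant and did not pass the filter on low counts. Without that filter its log2 change was 0.70 (edgeR, adjusted p = 0.533), which did not pass the threshold.

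Ratios between loci of one library are free of the choice of scale. Cluster_35421 had 55.1 ± 16.2 counts per 1000 counts of Cluster_811 in carriers (SD, n = 24; lowest 26.2, median 51.0, highest 95.5) and 21.65 ± 3.6 in Control plants (SD, n = 4; 17.2 to 25.2). Against Cluster_63677 it had 80.0 ± 31.7 counts per 1000 in carriers (lowest 41.2, median 75.5, highest 190.1) and 27.64 ± 11.02 in Control plants (14.5 to 38.9). With either partner, all 24 carriers lay above all 4 Control plants. Cluster_63677 itself had 717.9 ± 144 counts per 1000 counts of Cluster_811 in carriers and 874.3 ± 354 in Control plants (SD), and these ranges overlapped. Control replicate 4 alone stood at 1402, and without it the Control mean was 698.3, below that of the carriers. Relative to Cluster_811 and to Cluster_63677, the counts of Cluster_35421 were thus higher in carriers than in Control plants, in the libraries that also chose this locus. The reads placed at the locus alone were 67.2% for Cluster_35421, 4.81% for Cluster_811 and 0.0148% for Cluster_63677. These ratios therefore also depend on read assignment.

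**Figure D4:**
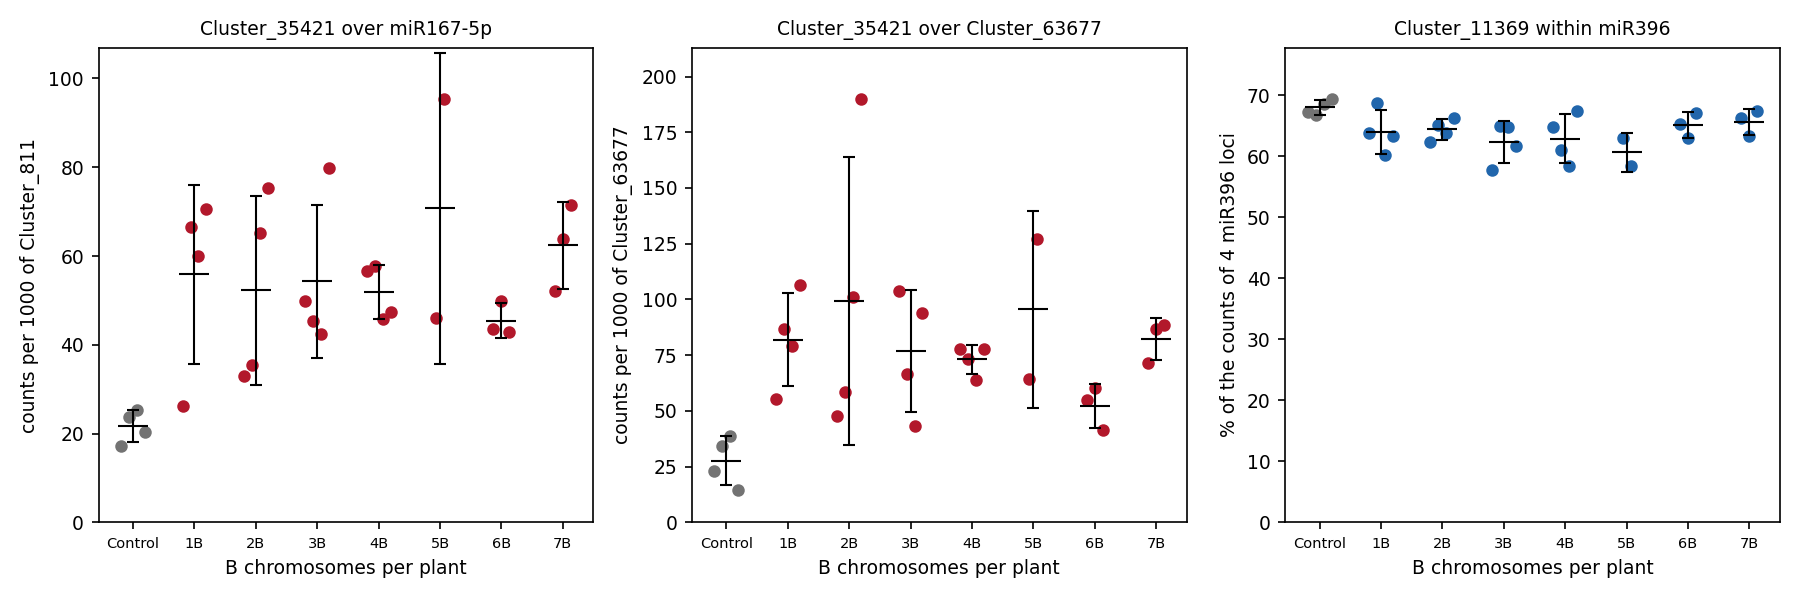
Counts of Cluster_35421 per 1000 counts of Cluster_811 (left) and of Cluster_63677 (middle), and Cluster_11369 as % of the counts of the 4 miR396 loci (right), in each plant by number of B chromosomes. Points are plants and bars the mean ± SD of a group; in the left and middle panels all carriers lie above all Control plants, and in the right panel 20 of 24 carriers lie below all Control plants.

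Of the other miR396 loci, edgeR called 0 of 3 in either direction. Cluster_32338 averaged 3104 ± 716 CPM in carriers and 3496 ± 1065 CPM in Control plants, with a log2 change of -0.22 (edgeR, adjusted p = 0.218). Cluster_42856, listed with the same most abundant RNA, averaged 1331 ± 281 CPM in carriers and 1588 ± 586 CPM in Control plants, with a log2 change of -0.30 (edgeR, adjusted p = 0.1). Cluster_42849 averaged 1305 ± 403 CPM in carriers and 1500 ± 464 CPM in Control plants, with a log2 change of -0.21 (edgeR, adjusted p = 0.353). All 3 changes were negative with TMM factors and positive on the RPM scale, where limma gave 0.20 for Cluster_32338, 0.15 for Cluster_42856 and 0.20 for Cluster_42849. Within the family, Cluster_11369 made up 63.7% ± 2.98 of the counts of the 4 loci in carriers (SD, n = 24; lowest 57.8%, median 63.8%, highest 68.8%) and 68.0% ± 1.25 in Control plants (SD, n = 4; 66.7% to 69.5%). Here 20 carriers lay below the lowest Control plant and 0 above the highest. The miR396 loci share most reads with each other or with other places, so this share also depends on read assignment.

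Lists of miRNA families put both loci beside functions known from plants. The list for auxin holds miR160, miR164, miR167, miR390 and miR393, which act directly or indirectly on auxin response factors, auxin receptors and related transcription factors. Without Cluster_35421, edgeR called 0 of its 10 tested loci higher and 4 lower in carriers, with a median log2 change of -0.34 against -0.16 for all loci and 40.8% of all loci called. The 4 were Cluster_63677 and the 3 loci of miR393, which targets mRNAs of auxin receptors. With whole library totals the median was 0.01, against 0.22 for all loci. None of the 10 was then called, and 4 of all 70 loci were lower. With 1 library left out, 0 to 6 of the 10 were lower, and 0 in most of those fits. The list for leaf growth and polarity holds miR159, miR165, miR166, miR319, miR390 and miR396, of which miR165 and miR319 matched 0 loci. Without Cluster_11369, 4 of its 13 tested loci were higher and 0 lower, with a median of 0.05. Over all 71 tested loci, 12 were higher and 17 lower. All 4 were miR166 loci, and miR166 targets mRNAs of HD-ZIP III factors that set the upper leaf side. Their log2 changes were alike, from 0.26 to 0.31. Whether miR166 loci share reads was not examined, so they may not count as separate results. With whole library totals 8 of the 13 were higher, against 24 of all 70 loci. When carriers were fitted as 1 group, 1 of the 13 was higher, against 8 of all 71 loci. For phase change (miR156 and miR172), 0 of 6 loci were called either way with TMM factors and no block. With whole library totals 4 of the 6 were higher, again against 24 of all 70 loci. With the replicate block, and without 1B replicate 2, 1 of the 6 was lower.

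The loci that varied most like each locus among the 24 carriers were found by Pearson's r of log2 CPM over the 70 other tested loci. For Cluster_35421 they were Cluster_11283 of miR393 (r = 0.532), Cluster_35294 of miR390 (r = 0.419) and Cluster_22510, which matched no family (r = 0.402). Over all 28 plants these were -0.0181, -0.00648 and -0.0491. For Cluster_11369 they were Cluster_3485 (r = 0.657) and Cluster_17213 (r = 0.605), both of no named family, and Cluster_42856 of miR396 (r = 0.604). Over all 28 plants these were 0.678, 0.0441 and 0.709. The highest 3 of 70 values are raised by that choice, and none was tested. Cluster_11369 and Cluster_42856 share most of their sequence, and all values of a plant share 1 library and 1 scaling factor. Between Cluster_35421 and Cluster_11369, r was -0.181 over the 24 carriers. In carriers Cluster_11283 averaged 545.4 ± 153 CPM, against 807.6 ± 97.5 CPM in Control plants, so its level with B presence went the other way from that of Cluster_35421.

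RNA-seq of the same plants gave the genes next to the loci, an assay that was not used to choose them. Limma on log2(FPKM + 0.5) called 47.0% of the 24515 tested genes for B presence, so a call next to a locus is common. How many of all tested genes show no overlap between carriers and Control was not counted, so nothing is read from such separation below. Of the 3 nearest genes that could be tested, 3 were called. These genes have no names in the sources used here. Zm00004b011078, the nearest gene after Cluster_35421, starts 30200 bp away and averaged 20.9 ± 2.23 FPKM in carriers (SD, n = 24; lowest 16.9, median 20.7, highest 25.0) and 10.2 ± 0.984 FPKM in Control plants (SD, n = 4; 9.08 to 11.3). All 24 carriers lay above all Control plants (log2 change 1.01 ± 0.07 SE; limma, adjusted p = 1.38e-11). Zm00004b011077, the nearest gene before it at 25518 bp, averaged 3.54 ± 0.631 FPKM in carriers (lowest 2.38, highest 4.75) and 5.18 ± 0.875 FPKM in Control plants (3.96 to 5.89), with 18 carriers below the lowest Control plant (log2 change -0.49 ± 0.13 SE; limma, adjusted p = 0.00227). The nearest genes before and after Cluster_35421 thus changed in opposite directions. On each side, the second-nearest gene went the other way from the nearest (log2 change 4.10 before and -0.74 after). Zm00004b005946, 10298 bp after Cluster_11369, averaged 2.78 ± 0.826 FPKM in carriers (lowest 1.30, highest 4.61) and 7.42 ± 0.978 FPKM in Control plants (6.70 to 8.82). All 24 carriers lay below all Control plants (log2 change -1.34 ± 0.18 SE; limma, adjusted p = 8.62e-07). The nearest gene before Cluster_11369, 3518 bp away, was listed at 0 in 23 of 24 carriers and in all 4 Control plants and was not tested.

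**Figure D5:**
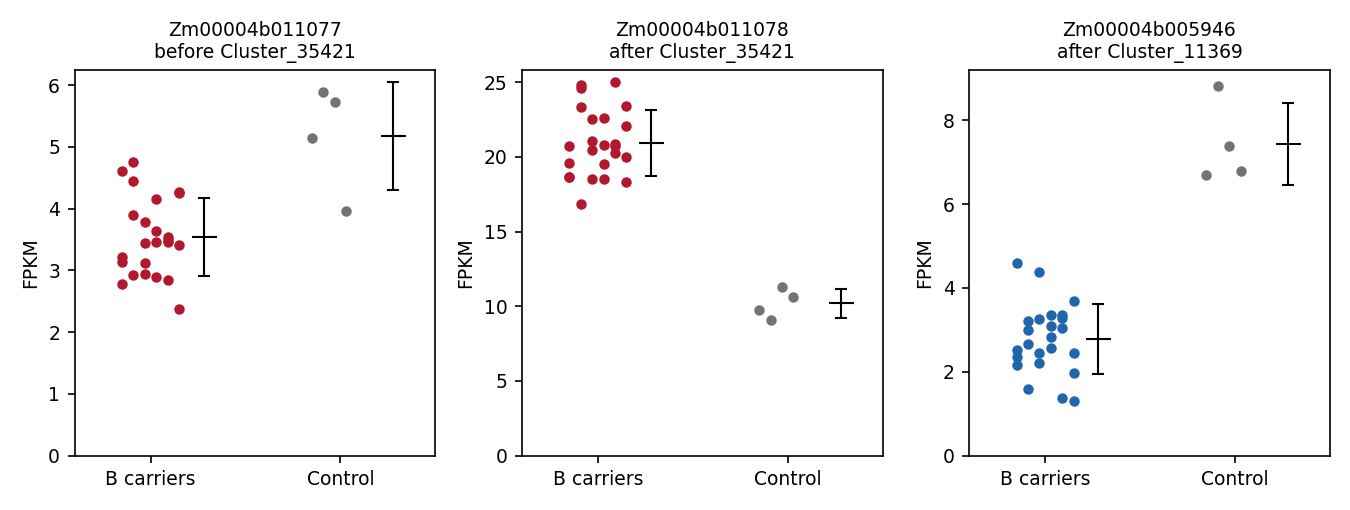
FPKM of the nearest tested genes of Cluster_35421 (left and middle) and Cluster_11369 (right) in each B carrier (n = 24) and Control plant (n = 4), with the mean ± SD beside the points. Carriers and Control plants do not overlap for Zm00004b011078 (carriers higher) and Zm00004b005946 (carriers lower). The share of all genes without overlap was not counted.

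Within 1 Mb on each side, 46 of 87 tested genes around Cluster_35421 (52.9%) and 39 of 79 around Cluster_11369 (49.4%) were called, near the 47.0% of all genes. Around Cluster_35421, 13 were higher and 33 lower, with a median log2 change of -0.16. Around Cluster_11369, 11 were higher and 28 lower, with a median of -0.18. Over all tested genes, 5697 were higher and 5817 lower, with a median of -0.01. Windows of the same size around other loci of the families had other splits, with 17 higher and 8 lower around Cluster_32338, 16 and 11 around Cluster_42849 and Cluster_42856, 16 and 15 around Cluster_35675, 11 and 9 around Cluster_811 and 2 and 5 around Cluster_63677. These differences between windows were not tested. In bulk leaf, a change in the number of cells that make an RNA and a change in RNA per cell cannot be told apart.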

How the data were processed

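The loci, the family lists and the rule for the neighbouring genes were chosen with earlier results of these data known. That rule took the nearest genes by their coordinates alone. The authors deposited read counts per miRNA locus and library, RPM of each small RNA library, and a gene table of FPKM values, the unit being found from the values. Read lengths and the fraction of reads on the top strand are deposited values pooled over all libraries. The authors' log2 fold changes and false discovery rates (adjusted p-values) come from an edgeR table, per the file headers, and only the fold changes are printed. The submitters' processing notes name cutadapt 1.16, with Bowtie2, TopHat2, Cuffdiff and edgeR, and give no roles. The genome build, how reads with several places were assigned and whether gene counting used strand are not given in the sources used here. Spike-in and transposable element tables were not used here. Scaling of the FPKM values between libraries was left as deposited.

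Families were assigned after the files were seen. Short sequence keys written from textbook knowledge named 29 loci, and pairing with the 5p RNA named the 3 miR167 3p loci, 32 of the 98 in all. Counts were fitted with edgeR 4.0.16 (R 4.3.3; quasi-likelihood test, TMM factors, filterByExpr by group) over 8 copy-number groups. The B presence contrast set the equally weighted mean of 1B to 7B against Control. B dosage was the slope among the 24 carriers. FPKM was tested with limma 3.58.1 (trend) on log2(FPKM + 0.5), keeping genes that reached 0.5 FPKM in 2 libraries or more, which understates changes of low genes. The Benjamini-Hochberg method was applied over all features tested in a table, with a threshold of 0.05. DESeq2 1.42.0 was an alternative. The named loci were the 2 chosen, the others of their families, the 3 most similar to each and those without overlap between carriers and Control. The named genes were the nearest on each side. 0 pairs of libraries had identical counts. Both fits were tested on simulated data.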

Additional observations from a re-analysis of the deposited data

Results flagged for a closer look

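Zm00004b005946, the nearest gene after Cluster_11369, had 4.37 FPKM in 4B replicate 3, far from the other 3 plants of that group, which had 2.51 to 2.67 FPKM. It remained below the lowest Control plant, at 6.70 FPKM. Of 60 groups of 4 plants examined for such a value over the miR167 and miR396 loci and 4 neighbouring genes, this was the only one found. Chance marks about 1 in 20 groups.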

How the results depend on the processing

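The log2 change of Cluster_35421 with B presence stayed between 1.15 and 1.54 over 9 ways of scaling and testing and between 1.10 and 1.35 with 1 small RNA library left out. That of Cluster_11369 was -0.51 with TMM factors, -0.15 with whole library totals, -0.10 in limma on RPM and -0.62 to -0.15 with 1 library left out. The slope of Cluster_11369 per copy was between -0.0239 and 0.0231 with 1 library left out. The count of loci called for B presence was 29 in the main fit. It was 17 of 62 when the miR166 loci were left out, an alternative chosen after seeing the data. With 1 library left out it was 19 to 31, and the 19 were found without Control replicate 4. The main fit had 12 loci higher, 17 lower and a median log2 change of -0.16. Most fits that left out 1 carrier had fewer loci lower. Without 2B replicate 1, 13 were higher and 11 lower, with a median of -0.02. The count for dosage was 0 with edgeR, 1 with DESeq2 and 0 to 5 with 1 carrier left out, with 2 without 3B replicate 4 or 5B replicate 2. The causes were not tested. The 3 neighbouring genes kept direction and call in each alternative run. With the replicate block the changes were 1.16 for Cluster_35421 and -0.49 for Cluster_11369, and 28 loci were called; the numbers did not pair the plants, since same-numbered plants of different groups had a median r of 0.03 between their deviations (-0.50 to 0.37 over 87 pairs). The 4 Control plants, the small counts of Cluster_35421 and the shared reads of miR396, Cluster_63677 and Cluster_811 limit the precision. With each Control library left out of the within-family ratios, also chosen after seeing the data, the log2 ratio of Cluster_63677 to Cluster_811 between carriers and Control ran from -0.40 to 0.04, with 0.04 found without Control replicate 4; both ratios of Cluster_35421 and the share of Cluster_11369 kept their direction.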

Other observations

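Zm00004b011076, the second-nearest gene before Cluster_35421 at 35771 bp, and the second-nearest gene after it, at 33309 bp, were both singled out after their values were seen. Zm00004b011076 averaged 9.09 ± 1.19 FPKM in the 24 carriers (SD; lowest 7.20, median 9.08, highest 11.4). In the 4 Control plants Zm00004b011076 had 0, 0.162, 0.0540 and 0 FPKM. All 24 carriers lay above all 4 Control plants. The second-nearest gene after the locus averaged 9.82 ± 1.70 FPKM in carriers (SD; lowest 6.68, median 9.71, highest 14.4) and 16.4 ± 1.31 FPKM in Control plants (SD; 14.5 to 17.5), and all 24 carriers lay below all 4 Control plants. How common such separation is among all tested genes was not counted.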
